A study of Rattus norvegicus with 15 samples.

Results

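Glutamine synthetase and 9 other genes of the pericentral liver zone, or of the Wnt signal that sets it, were followed through liver RNA of untreated rats and of rats made cirrhotic by CCl4, with or without eplerenone. They were found by their symbols in the gene column of the count table, and all 10 were among its 32623 genes. Glul, Oat, Slc1a2 and Rhbg act in pericentral hepatocytes, Lgr5, Axin2 and Tbx3 respond to Wnt, and Rspo3, Wnt2 and Wnt9b are secreted signals. Male Wistar rats were used throughout. Control rats were untreated (5 rats by the labels, 4 of them with a column in the table, replicates 2 to 5). Rats of the cirrhosis group (5) inhaled CCl4 for 12 weeks and drank water with 0.35 g/L phenobarbital, an inducer of hepatic enzymes. Rats of the cirrhosis & eplerenone group (5) had the same CCl4 and phenobarbital and, from week 8 to week 12, eplerenone at 100 mg/kg body weight, which blocks the mineralocorticoid receptor. Livers of CCl4-treated rats were taken 7 to 10 days after the last CCl4, so the values describe the liver after withdrawal of the toxin. According to the study, rats were chosen for sequencing by the success of cirrhosis induction or of treatment, and phenobarbital was given to both CCl4 groups and not to controls, so its share in a difference from control and that of CCl4 cannot be told apart.

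The liver lobule is divided into zones along the path of blood from the portal tract to the central vein. Endothelial cells of the central vein and the adjoining sinusoids secrete Wnt2, Wnt9b and the R-spondin Rspo3, which act through Frizzled, Lrp and Lgr receptors and beta-catenin on the hepatocytes next to them. These hepatocytes make glutamine from ammonium through Glul, while the periportal zone makes urea, and they also carry the cytochromes P450 that turn CCl4 into its toxic radical, which is why CCl4 injures this zone.

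Beta-catenin acts on DNA through TCF/LEF factors, and the promoters below are shown because they hold the letters these factors are known to bind. The RefSeq promoter table (build GRCr8, 250 bases before to 50 after each start site, 300 in all) had 10 windows for 8 of the 10 genes. There was no entry for Lgr5 and Tbx3. Both strands were searched for CTTTGA and for CTTTGAT, which contains it. The shorter motif was in 16.1% and the longer in 3.63% of the 33469 windows of the table. Each was in 3 of the 10 windows of the Wnt and pericentral genes, namely the first of the Glul windows, the second of the Slc1a2 windows and the only one of Axin2. Capitals mark the motif, which reads TCAAAG or ATCAAAG where it lies on the opposite strand.
Glul, chr13:68519250-68519549, plus strand: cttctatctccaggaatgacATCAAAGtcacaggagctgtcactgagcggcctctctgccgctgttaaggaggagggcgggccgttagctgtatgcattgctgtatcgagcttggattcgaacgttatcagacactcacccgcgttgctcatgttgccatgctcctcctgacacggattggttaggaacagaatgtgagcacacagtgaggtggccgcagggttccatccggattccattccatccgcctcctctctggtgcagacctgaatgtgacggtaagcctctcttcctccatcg
Slc1a2, chr3:109507697-109507996, plus strand: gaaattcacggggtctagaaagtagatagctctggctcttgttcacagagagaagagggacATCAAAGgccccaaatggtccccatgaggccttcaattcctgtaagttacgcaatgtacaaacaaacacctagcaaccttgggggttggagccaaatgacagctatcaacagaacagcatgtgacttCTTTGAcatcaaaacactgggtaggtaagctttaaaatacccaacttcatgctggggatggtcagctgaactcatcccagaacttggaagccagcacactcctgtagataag
Axin2, chr10:94398535-94398834, plus strand: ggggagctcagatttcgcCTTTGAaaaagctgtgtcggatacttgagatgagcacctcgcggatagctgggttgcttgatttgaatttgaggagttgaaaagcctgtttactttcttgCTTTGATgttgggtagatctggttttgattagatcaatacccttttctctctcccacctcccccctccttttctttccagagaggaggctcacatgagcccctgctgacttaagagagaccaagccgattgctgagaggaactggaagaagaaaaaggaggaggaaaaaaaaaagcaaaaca
The longer motif began at position -230 from the start site of the first Glul window and at -189 from that of the second Slc1a2 window. Both lay on the opposite strand. In the Axin2 window it began at -132, on the gene's own strand. The shorter motif alone was found at -62 of the same Slc1a2 window and -232 of Axin2. The other Glul window and the other Slc1a2 window, at other start sites, held neither motif. These are matches of letters in a window and were not tested as binding sites.

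Between 16157491 and 21574767 reads per liver were counted on genes. Values are given as FPM, counts divided by the TMM-scaled library size in units of 1000000 reads, where 3 counts stand for 0.121 to 0.191 FPM. The first principal component (66.6% of variance) placed cirrhosis replicate 5 at -13.0 and the other cirrhosis livers at 38.0 to 47.7, while controls lay between -50.6 and -44.3. The cirrhosis & eplerenone livers spread from -26.8 (replicate 2) to 42.6 (replicate 3). Numbers at the start of the sample codes in the labels also differed: CCl4-treated rats had the prefix 15 (cirrhosis replicates 1 to 3, cirrhosis & eplerenone replicates 1 and 2) or 20 (the other 5), and controls had 13 or 16. What the prefix stands for is not given in the sources used here, and between control and CCl4 groups prefix and treatment cannot be told apart. With total counts in place of TMM, the log2FC of all genes shift upward by a median of 0.29 in cirrhosis and 0.32 in cirrhosis & eplerenone against control, and values below are relative to the TMM scale.

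In cirrhosis, Rspo3 fell, Wnt9b and Rhbg rose, and no Lgr5 read was counted. Of the 9 genes that passed the filter on low counts, 3 were called in cirrhosis against control at an FDR below 0.05 in edgeR's quasi-likelihood test, against 20.2% of the 14417 genes tested. Of the 3, 2 were higher (13.4% of all genes) and 1 was lower (6.71%), and all 3 were called by DESeq2 as well (both tools called 20.1% of all genes, and DESeq2 27.8%). At an unadjusted p below 0.05 in edgeR there were 5 of 9, against 37.1%. A negative log2FC was found for 7 of the 9, and the median of all 9 was -0.78 beside -0.01 over all genes. Between cirrhosis & eplerenone and cirrhosis none of the 9 was called, 8 of the 9 log2FC were positive and the median was 0.89 beside 0.01 over all genes. In whole liver, fewer cells of a type and less RNA per cell cannot be told apart, for these and all later values.

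**Figure D1:**
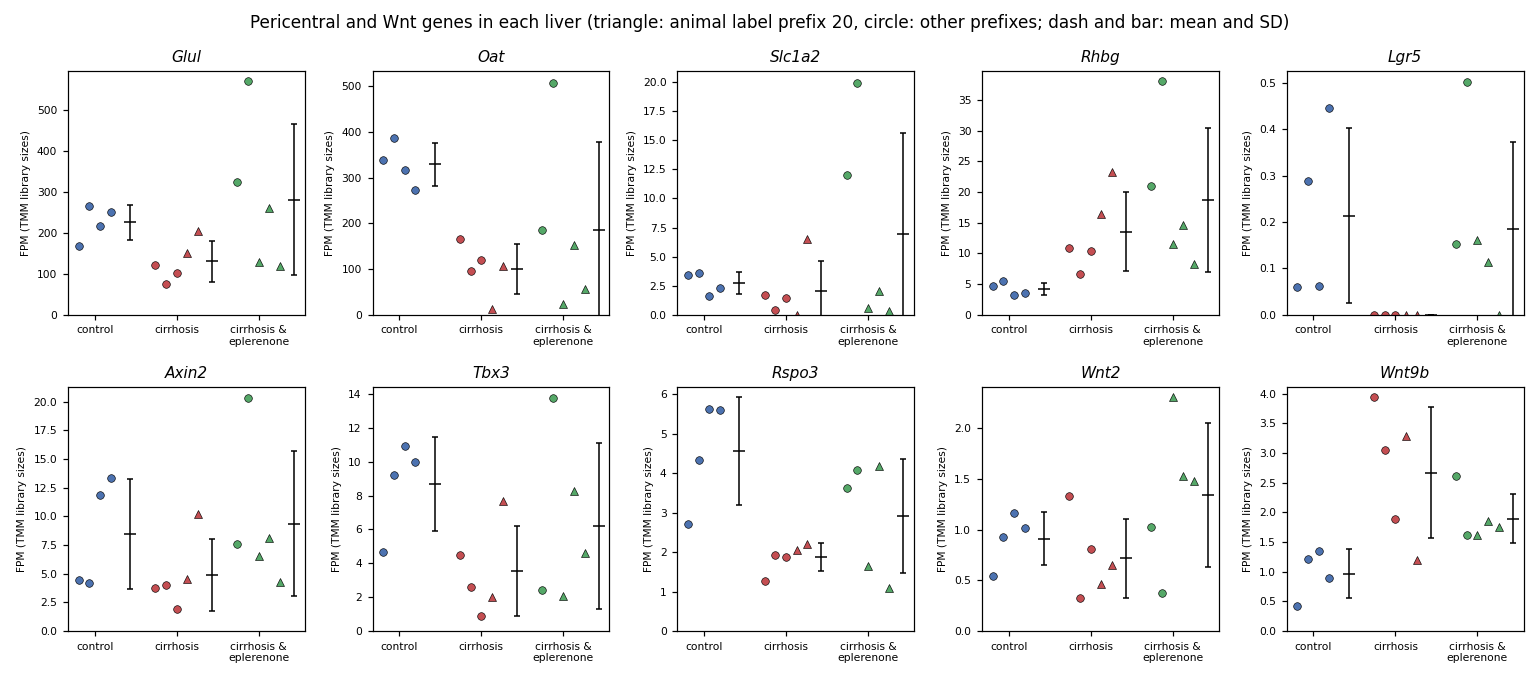
FPM of the 10 genes in each liver, 1 panel per gene, with the groups on the horizontal axis, triangles for label prefix 20, circles for the other prefixes, and mean and SD beside the points (bars end at 0). Rspo3 of the 5 cirrhosis livers (1.28 to 2.20) sits below all controls (2.71 to 5.62), Rhbg of all CCl4-treated livers sits above all controls, and Lgr5 is at 0 in every cirrhosis liver.

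Rspo3, chromosome 1, encodes R-spondin 3, which keeps Frizzled receptors at the cell surface and so raises the Wnt response. It had 2.71, 4.34, 5.62 and 5.60 FPM in the control livers and 1.28, 1.92, 1.89, 2.05 and 2.20 in cirrhosis. All cirrhosis livers were below all controls, as was the case in 1 direction or the other for 20.2% of all genes tested and for 3 of these 9. Mean levels were 4.57 ± 1.37 (SD, n = 4) and 1.87 ± 0.353 (SD, n = 5), a log2FC of -1.29 (SE 0.39, edgeR FDR 0.0311). Cirrhosis & eplerenone livers had 3.63, 4.07, 1.66, 4.18 and 1.09 FPM, so 3 of the 5 lay within the control range and 2 within or below that of cirrhosis. Against cirrhosis the log2FC was 0.64 (95% interval -0.14 to 1.43, edgeR FDR 0.402), and against control -0.64 (-1.46 to 0.17, edgeR FDR 0.375). The cirrhosis call was lost when control replicate 3, 4 or 5 or cirrhosis replicate 1, 3 or 4 was left out (log2FC -1.32 to -1.15, edgeR FDR 0.0558 to 0.0904), and with total counts in place of TMM (-0.99, edgeR FDR 0.0752).

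Wnt9b, chromosome 10, encodes a ligand made by central vein endothelium, and it moved the other way. Control livers had 0.422, 1.21, 1.34 and 0.890 FPM, and cirrhosis livers had 3.94, 3.06, 1.89, 3.28 and 1.19. Every control was exceeded by 4 of the 5 cirrhosis livers, and replicate 5 fell among the controls. From 0.967 ± 0.410 (SD, n = 4) the mean rose to 2.67 ± 1.11 (SD, n = 5), a log2FC of 1.46 (SE 0.42, edgeR FDR 0.0248). With eplerenone the values were 2.61, 1.63, 1.62, 1.86 and 1.75 FPM, all above the controls, and 4 of them were below every cirrhosis liver but replicate 5. The log2FC was 0.96 against control (95% interval 0.08 to 1.84, edgeR FDR 0.196) and -0.50 against cirrhosis (-1.29 to 0.29, edgeR FDR 0.503). Leaving out control replicate 2 or 5 or cirrhosis replicate 1 or 4 ended the cirrhosis call (log2FC 1.21 to 1.42, edgeR FDR 0.0526 to 0.0717). Control replicate 2 had 7 counts of Wnt9b, so the gene passed the filter only with the help of CCl4-treated livers. It was not tested where every sample had to reach 10 counts.

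Wnt2, chromosome 4, the ligand of central and sinusoidal endothelium, had overlapping levels in the 3 groups. Controls had 0.543, 0.925, 1.16 and 1.02 FPM, cirrhosis livers 1.33, 0.326, 0.809, 0.462 and 0.655, and cirrhosis & eplerenone livers 1.02, 0.375, 2.31, 1.52 and 1.48. The highest value was that of cirrhosis & eplerenone replicate 3 and the lowest that of cirrhosis replicate 2. Its log2FC was -0.35 in cirrhosis against control (95% interval -1.46 to 0.76, edgeR FDR 0.634) and 0.92 with eplerenone against cirrhosis (-0.12 to 1.95, edgeR FDR 0.378). Against control, cirrhosis & eplerenone livers differed by 0.56 (-0.54 to 1.66, edgeR FDR 0.612).

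Lgr5, chromosome 7, encodes the receptor for R-spondins that marks the hepatocytes around the central vein and is itself switched on by Wnt. Its counts were 1, 5, 1 and 7 in control livers, 0 in each of the 5 cirrhosis livers, and 3, 8, 4, 2 and 0 in cirrhosis & eplerenone livers. It therefore did not pass the filter and was compared on its own. Pooled over the group, control livers had 0.212 FPM, and 3 counts over all cirrhosis livers would be 0.0308 FPM. The control level was 6.89-fold this floor, or 4.52-fold without control replicate 5, which held 7 of the 14 control counts. Such ratios leave out the counting error of the group above the floor, so they are not lower limits. The exact permutation test over livers gave p = 0.00794, the smallest this design allows, and p = 0.0238 after adjustment over the 3 comparisons. With eplerenone the pooled level was 0.177 FPM, 5.73-fold the floor of cirrhosis (exact permutation p = 0.0476, adjusted p = 0.0714), and reads were seen in 4 of 5 livers. Without cirrhosis & eplerenone replicate 2, which held 8 of the 17 counts of its group, that ratio was 3.64. Cirrhosis & eplerenone and control did not differ beyond their spread (exact permutation p = 0.825). Cirrhosis replicate 5, the liver nearest to controls on the first principal component, also had 0 Lgr5 counts.

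Axin2, chromosome 10, a feedback inhibitor of beta-catenin and a general Wnt target, varied among controls themselves. These had 4.46, 4.22, 11.8 and 13.4 FPM, a 3.16-fold range. Cirrhosis livers had 3.77, 4.04, 1.89, 4.51 and 10.2 FPM, where 3 of 5 lay below every control, replicate 4 just above the 2 lowest controls, and replicate 5 between the low and the high pair of controls. Cirrhosis & eplerenone livers had 7.62, 20.3, 6.52, 8.13 and 4.26 FPM. The log2FC was -0.79 in cirrhosis against control (95% interval -1.89 to 0.30, edgeR FDR 0.267), 0.94 with eplerenone against cirrhosis (-0.10 to 1.98, edgeR FDR 0.371) and 0.14 with eplerenone against control (-0.95 to 1.24, edgeR FDR 0.917). The last of these had the opposite sign without control replicate 2 (-0.07) or 3 (-0.08) or cirrhosis & eplerenone replicate 2 (-0.35).

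Tbx3, chromosome 12, a T-box repressor induced by beta-catenin in pericentral hepatocytes, had 4.64, 9.19, 10.9 and 9.99 FPM in control livers. In cirrhosis the values were 4.49, 2.61, 0.863, 2.00 and 7.68, and with eplerenone 2.40, 13.8, 2.06, 8.30 and 4.59. Among the cirrhosis livers, 4 of 5 were below every control. The log2FC was -1.30 in cirrhosis (95% interval -2.56 to -0.04, edgeR FDR 0.123), and it passed the threshold without cirrhosis replicate 5, the liver with the highest Tbx3 of its group (-1.80, edgeR FDR 0.0317). Eplerenone against cirrhosis gave 0.82 (-0.38 to 2.02, edgeR FDR 0.472), and eplerenone against control -0.49 (-1.73 to 0.76, edgeR FDR 0.718).

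Glul, chromosome 13, encodes glutamine synthetase, which removes the last ammonium from blood before it leaves the lobule. Control livers had 168, 265, 217 and 249 FPM and cirrhosis livers 122, 74.7, 102, 151 and 204. The 4 lowest cirrhosis livers were below every control, and replicate 5 fell among them. With eplerenone Glul reached 325, 570, 130, 261 and 118 FPM, a 4.84-fold range that held both the highest value of the 14 livers and values at the cirrhosis level. The cirrhosis mean of 131 ± 49.6 (SD, n = 5) against 225 ± 42.9 in control (SD, n = 4) gave a log2FC of -0.78 (95% interval -1.64 to 0.07, edgeR FDR 0.166). The cirrhosis & eplerenone mean was 281 ± 184 (SD, n = 5), a log2FC of 1.10 above cirrhosis (0.29 to 1.92) with an unadjusted p of 0.0114 in edgeR, at which 14.4% of all genes fell below 0.05, and an FDR of 0.312. With 1 liver left out it ran from 0.67 to 1.32 and was called in none of the 14 fits. Against control it was 0.32 (-0.54 to 1.18, edgeR FDR 0.736), and -0.11 without cirrhosis & eplerenone replicate 2.

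Oat, chromosome 1, encodes ornithine aminotransferase, which links ornithine to glutamate in the same cells. It had 339, 387, 317 and 273 FPM in controls and 165, 96.1, 119, 12.6 and 108 in cirrhosis. Every cirrhosis liver was below every control, and cirrhosis replicate 4 was far below the rest. The log2FC of -1.72 had an SE of 0.70 (95% interval -3.20 to -0.23) and was not called (edgeR FDR 0.0881, DESeq2 adjusted p 0.0785). Leaving out cirrhosis & eplerenone replicate 2 or 3, the extremes of that group, brought it just under the threshold (-1.72 and -1.70, edgeR FDR 0.0499 and 0.0497). In the eplerenone group Oat ran from 23.0 to 508 FPM, a 22.1-fold range (185, 508, 23.0, 153 and 56.7). It differed from cirrhosis by 0.89 (-0.51 to 2.29, edgeR FDR 0.502) and from control by -0.83 (-2.30 to 0.64, edgeR FDR 0.564), and without cirrhosis & eplerenone replicate 2 by 0.06 and -1.66.

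Slc1a2, chromosome 3, is a glutamate transporter of pericentral hepatocytes, also abundant in glia. Control livers had 3.44, 3.58, 1.59 and 2.29 FPM. Cirrhosis livers had 1.72, 0.408, 1.40, 0 and 6.55, and cirrhosis & eplerenone livers had 12.0, 19.9, 0.567, 2.09 and 0.328. Both CCl4 groups therefore spanned the whole control range and beyond it on both sides. None of its log2FC was called, at -0.45 in cirrhosis (95% interval -2.80 to 1.89, edgeR FDR 0.784), 1.80 with eplerenone against cirrhosis (-0.44 to 4.04, edgeR FDR 0.408) and 1.35 against control (-1.03 to 3.72, edgeR FDR 0.562). The first was -1.64 without cirrhosis replicate 5 (edgeR FDR 0.265). Leaving out 1 liver moved the second between 0.91 (without cirrhosis & eplerenone replicate 2) and 2.99 (without cirrhosis replicate 5) and the third between 0.46 and 1.66, and the third was -0.17 in limma-voom.

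Rhbg, chromosome 2, encodes an ammonium transporter of the pericentral plasma membrane. It was alone among the 4 hepatocyte genes in being called in cirrhosis, where the log2FC of the others were negative and not called. Controls had 4.70, 5.44, 3.17 and 3.50 FPM, cirrhosis livers 10.9, 6.73, 10.4, 16.5 and 23.2, and cirrhosis & eplerenone livers 21.1, 38.0, 11.5, 14.7 and 8.31. All 10 livers of CCl4-treated rats were above all controls. The mean rose from 4.20 ± 1.05 (SD, n = 4) to 13.5 ± 6.44 (SD, n = 5) in cirrhosis (log2FC 1.68, SE 0.44, edgeR FDR 0.0167) and to 18.7 ± 11.8 (SD, n = 5) with eplerenone (2.15, SE 0.44, edgeR FDR 0.0135). The CCl4 groups differed from each other by 0.47 (95% interval -0.35 to 1.29, edgeR FDR 0.541). Leaving out control replicate 4 or 5 ended the cirrhosis call (1.57 and 1.60, edgeR FDR 0.0514 and 0.0574), leaving out control replicate 5 ended that of the eplerenone group (2.07, edgeR FDR 0.0562), and limma-voom called neither (1.54 and 1.94, FDR 0.0545 and 0.0790).

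**Figure D2:**
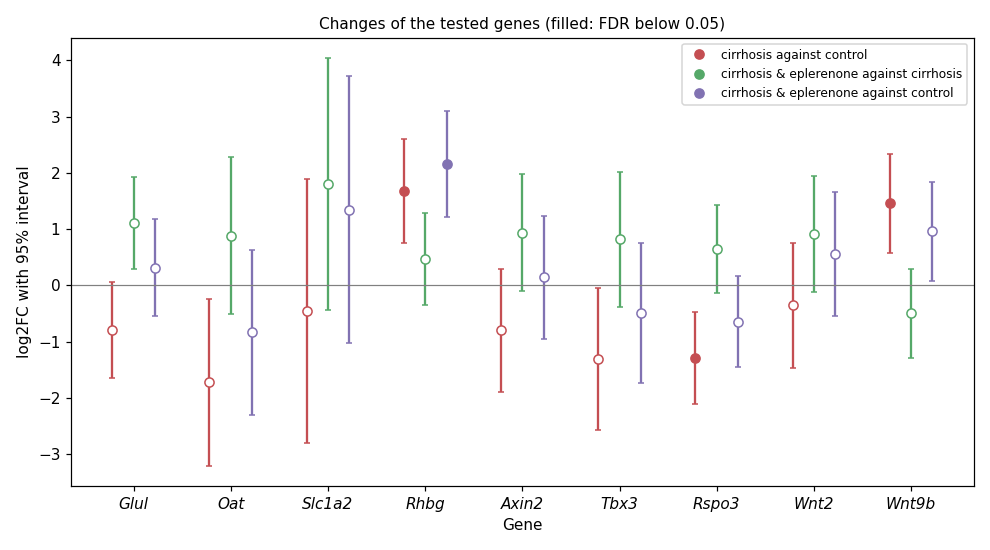
The log2FC of the 9 tested genes with 95% intervals from edgeR in the 3 comparisons, with called values marked. Rhbg and Wnt9b (1.68 and 1.46) lie above 0 and Rspo3 (-1.29) below 0 in cirrhosis against control, and every interval but that of Glul (0.29 to 1.92) crosses 0 in cirrhosis & eplerenone against cirrhosis.

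Against control, cirrhosis & eplerenone livers had 1 of the 9 genes called, Rhbg, where 5.22% of all genes were called (4.33% as higher). DESeq2 called it too (5.2% of all genes by both tools, 10.6% by DESeq2), and 2 of the 9 had an unadjusted p below 0.05 in edgeR (20.5% of all genes). The groups did not overlap for 2 of the 9, Rhbg and Wnt9b (10.9% of all genes). Cirrhosis and cirrhosis & eplerenone overlapped for each of the 9 genes, and 0.964% of all genes were without overlap there. The count of 0 calls among 9 stands beside 2 of 14417 genes (0.0139%) for eplerenone against cirrhosis, while edgeR gave 1 of the 9 an unadjusted p below 0.05 and DESeq2 called none (0.513% of all genes). The comparisons with control share the control livers, and the comparisons with cirrhosis share the cirrhosis livers, so a liver group that is high or low enters both.

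The difference between cirrhosis & eplerenone and cirrhosis was also taken within each label prefix. Among rats with prefix 15, mean Glul was 99.3 FPM in cirrhosis (n = 3) and 447 with eplerenone (n = 2), a log2 difference of 2.14. Among rats with prefix 20 it was 177 (n = 2) and 169 (n = 3), a difference of -0.15. Rhbg differed by 1.62 and -0.80, Slc1a2 by 3.79 and 0.03, Axin2 by 1.98 and -0.16, Rspo3 by 1.15 and -0.10, Tbx3 by 1.36 and 0.12, and Oat by 1.31 and 0.66 in the same order. For these 7 genes the larger difference was with prefix 15. Wnt2 went the other way (-0.17 and 1.48), and Wnt9b differed by -0.44 and -0.18. All Lgr5 levels of cirrhosis were 0 in both sets, and its mean with eplerenone was 0.327 FPM with prefix 15 and 0.0916 with prefix 20. A test of the difference between prefixes, added after these values were seen, gave -2.40 for Rhbg (unadjusted p = 0.000531 and FDR 0.287 in edgeR), -2.19 for Glul (unadjusted p = 0.00258 and FDR 0.344 in edgeR) and no call among 13795 genes. With the prefix as a block, Glul differed by 1.05 between the CCl4 groups (edgeR FDR 0.540).

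Deviations of each liver from its group mean show which genes varied together among rats of the same treatment. All 36 pairs of the 9 genes were compared over 14 livers, with p-values from 100000 permutations within groups. Glul and Rhbg had the highest correlation, with Pearson's r = 0.90 (permutation p = 0.000380, adjusted p = 0.0137) and Spearman's rho = 0.90 (permutation p = 0.000760, adjusted p = 0.0137). Its r was 0.81 without the 2 livers farthest from the median of Glul. Oat and Slc1a2 followed with r = 0.85 (permutation p = 0.00383, adjusted p = 0.0611) and rho = 0.87 (permutation p = 0.000570, adjusted p = 0.0137), and r = 0.79 without the 2 livers farthest from the median of Oat. Glul and Rspo3 had r = 0.75 (permutation p = 0.0158, adjusted p = 0.106) and rho = 0.68 (permutation p = 0.0289, adjusted p = 0.173), with r = 0.60 without the 2 livers farthest from the median of Glul. Axin2 and Tbx3 had r = 0.73 (permutation p = 0.00552, adjusted p = 0.0611) and rho = 0.67 (permutation p = 0.0156, adjusted p = 0.140), with r = 0.49 without the 2 livers farthest from the median of Axin2. Axin2 and Rspo3 had r = 0.62 (permutation p = 0.0176, adjusted p = 0.106) and rho = 0.74 (permutation p = 0.00338, adjusted p = 0.0406), with r = 0.58 without the 2 livers farthest from the median of Axin2. Only for Glul and Rhbg did both adjusted p-values of the 36 pairs pass 0.05. The r of Wnt2 with each of the 7 genes other than Wnt9b lay between -0.49 and -0.21, and that of Wnt9b with any gene between -0.28 and 0.20. Livers share their library and depth across genes, and the permutations did not hold the label prefix fixed. In cirrhosis, Glul and Rhbg were below the group mean in every liver with prefix 15 (-0.72 to -0.02 and -0.87 to -0.19). Both were above it with prefix 20 (0.29 and 0.73, 0.41 and 0.90). With eplerenone both were above the group mean with prefix 15 and below it with prefix 20, except Glul in replicate 4 (0.14). The part of the prefix in these correlations was not tested.

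**Figure D3:**
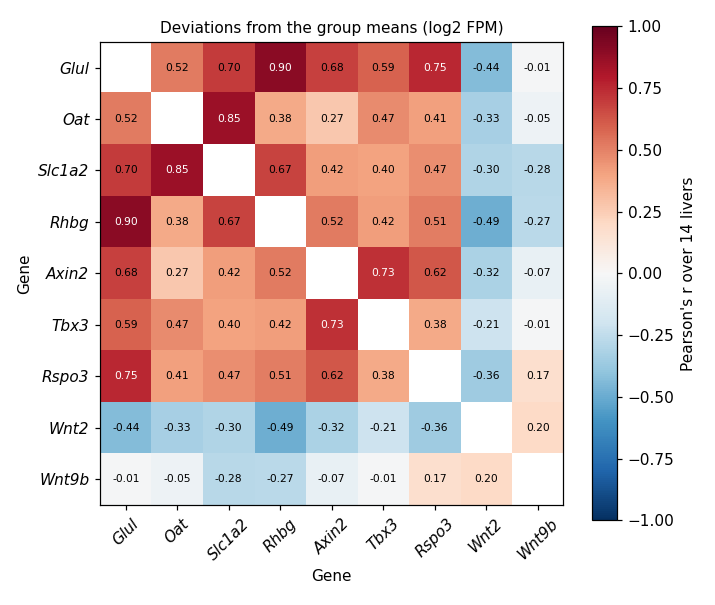
Pearson's r of the deviations from the group means of log2 FPM over 14 livers for each pair of the 9 tested genes, coloured from -1 to 1. Glul and Rhbg (0.90) and Oat and Slc1a2 (0.85) are the darkest red cells, and the row of Wnt2 is blue except for Wnt9b (0.20).

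Beyond these genes, the protein coding gene whose deviations were most like those of Glul was Pex11a, which drives division of peroxisomes (r = 0.91, rho = 0.90 over 14 livers). For Rhbg it was Hhip, which binds and blocks Hedgehog ligands (0.88, 0.85), for Slc1a2 the vitamin transporter gene Slc5a6 (0.94, 0.94), and for Oat the ATP synthase subunit gene Atp5f1c (0.95, 0.86). Axin2 was most like the oestrogen receptor gene Esr1 (0.89, 0.91), Tbx3 like Depdc7 (0.91, 0.86), Rspo3 like Zfp597 (0.92, 0.91), Wnt2 like the mitotic kinesin gene Kif2c (0.92, 0.88) and Wnt9b like Laptm4a (0.86, 0.82). These are the highest of very many values each and are given as a description, with no test.

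The rest of the Wnt pathway was counted in lists. Their counts in cirrhosis stand beside the 20.2% called of all genes tested, and a gene with few counts in controls could pass the filter only where it was higher in CCl4-treated livers. That was so for 4 of the 5 tested among 17 other Wnt ligands (Wnt5a, Wnt5b, Wnt7a and Wnt7b, with control means of 0.0303 to 0.392 FPM), so their number called and median are not read as a result about the list. Wnt4 rose from 1.46 to 12.1 FPM (log2FC 3.05, SE 0.50, edgeR FDR 0.00167), Wnt5b from 0.241 to 2.28 (3.21, SE 0.94, edgeR FDR 0.0280) and Wnt5a from 0.392 to 1.25 (1.66, SE 0.56, edgeR FDR 0.0472). Wnt7b had 2 counts in all controls and 57 in cirrhosis, a ratio of 19.3 (95% counting interval 5.11 to 163, edgeR FDR 0.0248). Wnt5a and Wnt5b are known mostly for signals that do not run through beta-catenin. Wnt2b, named here after its values were seen, did not pass the filter. It had 0.254 to 0.483 FPM in control livers (4 to 8 counts) and 0 to 0.162 in cirrhosis (0 to 3 counts). These groups did not overlap, as was the case for 20.2% of all genes tested. The cirrhosis counts were at or below the floor of 3. The summed FPM of the 17 ligands was 1.40 to 4.27 in control livers, from 5.83 to 24.6 in cirrhosis and from 5.93 to 14.3 with eplerenone, and cirrhosis replicate 5 was the lowest of its group. Against control, Wnt4 was the 1 ligand called with eplerenone (6.13 FPM, log2FC 2.07, edgeR FDR 0.0230). Leaving out 1 liver at a time, 1 to 4 ligands were called in cirrhosis (1365 to 4612 of all genes).

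Receptors moved in both directions. Of 13 tested Frizzled, Lrp and related genes, 2 rose and 4 fell in cirrhosis (13.4% and 6.71% of all genes, median -0.73). Fzd2 rose from 0.344 to 2.81 FPM (log2FC 3.0, edgeR FDR 0.00257) and Fzd6 from 2.89 to 12.0 (2.06, edgeR FDR 0.00895). With 23 counts over all controls, Fzd2 could pass the filter only through CCl4-treated livers. Fzd5 fell from 4.23 to 0.751 FPM (-2.47, edgeR FDR 0.0146) and Fzd4 from 47.2 to 16.1 (-1.55, edgeR FDR 0.00635), and Fzd8 and Lrp5 were also lower. Of the 3 tested genes among the other R-spondins and their receptors, Lgr4, the R-spondin receptor present across the lobule, fell from 41.8 to 15.1 FPM (-1.47, SE 0.48, edgeR FDR 0.0432), a call lost with total counts. Fzd2 and Fzd6 were called also with eplerenone against control (2.34 and 1.86, edgeR FDR 0.0198 and 0.0324). Of the 18 tested genes of Wnt secretion and the intracellular core, Dvl1 alone was called (-0.52, edgeR FDR 0.0379), with the median at -0.27.

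Secreted inhibitors moved unequally. Of 14 listed 8 passed the filter and 4 of these rose, while the summed level of the list was 113 to 170 FPM in control livers, from 47.1 to 147 in cirrhosis and from 65.9 to 160 with eplerenone. Most of the control sum was Notum, which alone had 98.6 to 156 FPM in control livers, 10.9 to 127 in cirrhosis and 15.1 to 132 with eplerenone. Sfrp1 rose from 1.40 to 11.7 FPM (log2FC 3.05, edgeR FDR 0.00589), Dkk2 from 0.313 to 2.47 (2.97, edgeR FDR 0.0133), Dkk3 from 1.02 to 5.99 (2.56, edgeR FDR 0.0139) and Frzb from 0.679 to 3.75 (2.45, edgeR FDR 0.00833). With 20 counts over all controls, Dkk2 could pass the filter only through CCl4-treated livers. With eplerenone 3 of the 8 were called against control (5.22% of all genes), Dkk2 (2.86), Dkk3 (2.60) and Sfrp1 (2.32), with edgeR FDR of 0.0353, 0.0284 and 0.0430. Notum, an enzyme that strips Wnt of its lipid and named here after its values were seen, had 132 ± 28.0 FPM in control (SD, n = 4) and 49.4 ± 46.1 in cirrhosis (SD, n = 5), with a log2FC of -1.42 (SE 0.60, edgeR FDR 0.101, DESeq2 adjusted p 0.0494). Among 7 other Wnt responders Nkd1, an inhibitor of Dvl, rose from 2.25 to 5.81 FPM (1.37, edgeR FDR 0.00234), and Ccnd1, cyclin D1, rose from 41.9 to 152 FPM (1.86, edgeR FDR 0.00168). Both were called also with eplerenone against control (1.31 and 1.44, edgeR FDR 0.00808 and 0.0140). Of these 7, 5 had a positive log2FC in cirrhosis, and none was called as lower. Among the 7, Tnfrsf19, with 14 counts over all controls, could pass the filter only through CCl4-treated livers. The number of positive values is therefore not read as a result about this list. Nkd1 and Ccnd1 thus rose in cirrhosis, where the log2FC of the responders Axin2 and Tbx3 were negative and not called. Named after their values were seen, Sp5 of the responder list had means of 0.729 FPM in control and 0.269 in cirrhosis. Its ranges overlapped (0.347 to 1.22 and 0.108 to 0.536 FPM), with 2 to 9 counts in the cirrhosis livers. Apcdd1 of the same list had means of 0.761 and 0.625 FPM. Rnf43, of the R-spondin list, had a log2FC of -1.22 (SE 0.44, edgeR FDR 0.0621, DESeq2 adjusted p 0.0359).

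**Figure D4:**
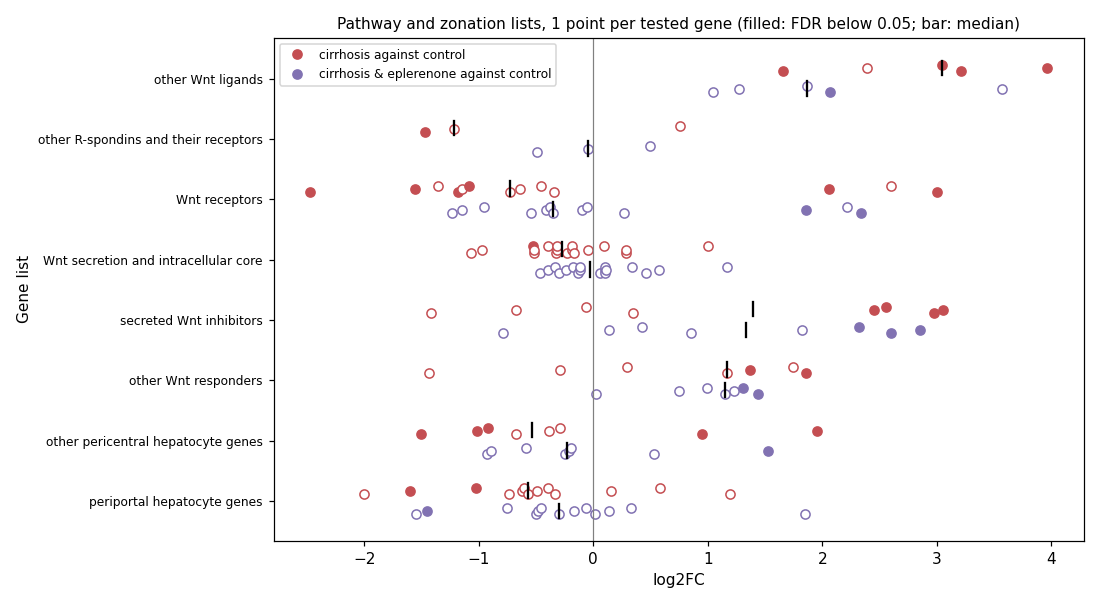
The log2FC of every tested gene of the Wnt and zonation lists in cirrhosis (red) and cirrhosis & eplerenone (violet) against control, filled where the edgeR FDR was below 0.05, with a bar at each list's median. Only genes that passed the filter are shown, so ligands, receptors and inhibitors with few counts in controls appear only where they are higher after CCl4. Wnt receptors lie on both sides of 0, from Fzd5 (-2.47) to Fzd2 (3.0) in cirrhosis.

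Other pericentral hepatocyte genes did not move in 1 direction. Of 8, 2 rose and 3 fell in cirrhosis (13.4% and 6.71% of all genes, median -0.53). Aldh1a1, a retinaldehyde dehydrogenase, rose from 54.0 to 209 FPM (log2FC 1.95, SE 0.33, edgeR FDR 0.00191) and Lect2 from 111 to 214 (0.95, edgeR FDR 0.0233). Nr1i3, the receptor through which phenobarbital acts, fell from 89.5 to 31.5 FPM (-1.51, SE 0.37, edgeR FDR 0.0124), Pon1 from 1492 to 737 (-1.02, edgeR FDR 0.0241), and Ahr was also lower (-0.92, edgeR FDR 0.0352). Aldh1a1 was called also with eplerenone against control (1.52, edgeR FDR 0.0151). Of 4 pericentral cytochromes P450, Cyp1a2 fell from 641 to 120 FPM (-2.42, SE 0.75, edgeR FDR 0.0358), and Cyp2e1, which activates CCl4, had a log2FC of 0.07 (edgeR FDR 0.917). Leaving out 1 liver at a time, 2 to 7 of the 8 pericentral genes were called (1365 to 4612 of all genes).

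Periportal genes were read beside them. Of 13, none rose and 2 fell in cirrhosis (13.4% and 6.71% of all genes, median -0.57). These were Hal, which degrades histidine, from 295 to 97.4 FPM (log2FC -1.60, edgeR FDR 0.0344) and Cyp2f4 from 102 to 50.4 (-1.02, edgeR FDR 0.0225). Cyp2f4 was also lower with eplerenone against control (-1.45, edgeR FDR 0.0106). The periportal median (-0.57) was thus near the pericentral one (-0.53), and the difference between the lists was not tested. Genes that carry or convert glutamate, glutamine and ammonium, the work of Glul, Oat, Slc1a2 and Rhbg, had 3 called of 14, all higher, a share near the 20.2% of all genes. The amino acid carriers Slc1a7 (log2FC 2.93, edgeR FDR 0.0110) and Slc1a5 (2.46, edgeR FDR 0.0153) rose, as did Aldh18a1, which starts proline and ornithine synthesis from glutamate (1.91, edgeR FDR 0.0212). Slc1a7 was called also with eplerenone against control (3.06, edgeR FDR 0.0207). With 20 counts over all controls, it could pass the filter only through CCl4-treated livers.

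Endothelial markers were read as a sinusoidal and a vascular list. Neither list singles out the central vein and adjoining sinusoids that send these signals. Of 10 sinusoidal endothelial markers, 7 fell in cirrhosis and none rose (6.71% and 13.4% of all genes, median -1.11). Fcgr2b (log2FC -1.52, edgeR FDR 0.00194), Ehd3 (-1.31, edgeR FDR 0.00119), Oit3 (-1.29, edgeR FDR 0.00262) and Dnase1l3 (-1.18, edgeR FDR 0.0239) fell the most. Their summed level was 355 to 451 FPM in control livers, from 119 to 310 in cirrhosis and from 245 to 348 with eplerenone, so cirrhosis did not overlap with control, and no marker was at 0 in any group. Ehd3, an endocytosis gene, was 1 of the 2 genes called for eplerenone against cirrhosis (15.1 to 39.7 FPM, 1.39, SE 0.19, edgeR FDR 0.0172). Of 6 vascular endothelial markers Vwf alone was called (12.7 to 81.9 FPM, 2.69, edgeR FDR 0.00439), and their sum ran from 48.9 to 59.6 FPM in control livers, from 48.5 to 176 in cirrhosis and from 45.2 to 141 with eplerenone. The part of endothelial cell number in the values of Rspo3, Wnt2 and Wnt9b was not tested.

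Hepatocyte markers, of which none of 7 was called, summed to 180798 to 209730 FPM in control livers, from 141132 to 197625 in cirrhosis and from 109794 to 200896 with eplerenone. Alb, serum albumin, had a log2FC of -0.63 (edgeR FDR 0.146) and Tf, transferrin, of 0.59 (edgeR FDR 0.133) in cirrhosis. DESeq2 called 4 of the 7 (27.8% of all genes). Of 11 stellate cell and fibroblast markers 6 rose (13.4% of all genes, median 1.76, summed level 163 to 268 FPM in control livers, from 287 to 572 in cirrhosis and from 421 to 584 with eplerenone), led by Col1a1 (3.36, edgeR FDR 0.00125), Acta2 (2.84, edgeR FDR 0.0219), Tagln (2.73, edgeR FDR 0.0116) and Des (2.31, edgeR FDR 0.00589). Col3a1 alone had 92.6 to 157 FPM of this sum in control livers, 167 to 272 in cirrhosis and 251 to 373 with eplerenone. Lrat, which stores retinol in quiescent stellate cells, and Reln, of the same list and named after their values were seen, had negative log2FC that were not called (-1.09 and -1.0, edgeR FDR 0.118 and 0.110). All 7 cholangiocyte markers rose (median 3.01, summed level 15.6 to 23.8 FPM in control livers, from 52.7 to 152 in cirrhosis and from 48.9 to 103 with eplerenone), led by Sox9 (4.18, edgeR FDR 0.000523), Sctr (3.53, edgeR FDR 0.000796), Cldn4 (3.32, edgeR FDR 0.00315) and Spp1 (3.01, edgeR FDR 0.00716). Sox9, Cldn4 and Krt7 had 22, 27 and 45 counts over all controls and could pass the filter only through CCl4-treated livers. The number called and the median are therefore not read as a result about this list. With eplerenone 3 stellate markers, Col1a1 (3.01), Dcn (1.64) and Col3a1 (1.22), and 4 cholangiocyte markers, Sox9 (3.39), Cldn4 (2.79), Sctr (2.53) and Epcam (1.64), were called against control at edgeR FDR of 0.00327 to 0.0274, beside 5.22% of all genes. Which of these cells made the added Wnt4, Wnt5a, Wnt5b, Wnt7b and Wnt9b cannot be read from whole liver and was not tested.

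**Figure D5:**
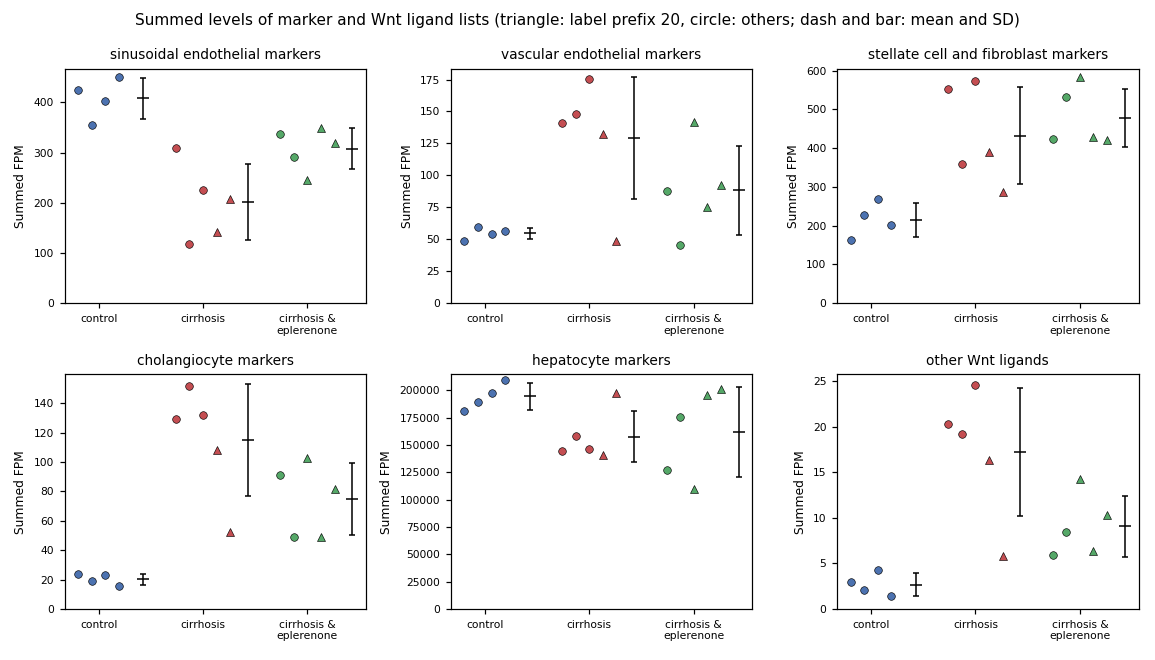
Summed FPM of 5 marker lists and of the other Wnt ligands in each liver, with triangles for label prefix 20, circles for the others, and mean and SD beside the points. Sinusoidal endothelial markers of cirrhosis (119 to 310) lie below all controls (355 to 451), and cholangiocyte markers of all CCl4-treated livers lie above all controls (15.6 to 23.8).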

How the data were processed

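Liver RNA of 15 labelled rats was sequenced, and 14 had a column in the table (control replicate 1 was not analysed here). The study set 1 control aside because it lay apart from the others in a principal component analysis, so the control spread used here is that after an exclusion. The authors selected poly(A) RNA, aligned paired 150 bp reads to rn6 with HISAT2 2.1.0, and used featureCounts 2.0.0 over the exons of Ensembl 101, counting a read with several alignments at each of them. The deposited values are raw counts per gene, without normalization. Whether strand was used is not stated, so reads of overlapping genes may be shared. Groups came from the labels, which give each sample a code of its own, and the study's methods describe them as separate rats.

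Genes were filtered with filterByExpr (minimum count 10), which kept 14417 of 32623 (11341 had no count). TMM library sizes and 1 model of the 3 groups were fitted in R 4.3.3 with the quasi-likelihood test of edgeR 4.0.16, with DESeq2 1.42.0 and limma 3.58.1 (voom) as alternatives, with the Benjamini-Hochberg adjustment taken over every gene tested. The edgeR step was tested on simulated data of cirrhosis against control with 14266 genes. Of 200 genes changed 4-fold there, 99.5% were recovered, and 2.46% of calls were false. Recovery at the spread between livers of the more variable members was not tested. In cirrhosis the SD was 18.9% of the mean for Rspo3, 55.3% for Oat and 130% for Slc1a2. FPM are counts divided by the TMM library size in units of 1000000 reads, with a prior count of 2 on the log2 scale. A gene at 0 was given a floor of 3 counts over the group. Floors and intervals of counts cover counting error only, and a floor covers only that of the group at 0. Lgr5, under the filter, was compared by a two-sided exact permutation test.

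The genes named are the members, up to 4 called genes of each list by size of log2FC (the 2 most abundant where none was called), genes called in the other comparisons, and 1 nearest gene per member. Members and lists were chosen with earlier results of these data known. Znrf3, Axin1, Aldh4a1, Prodh, Ahsg, Pecam1 and Col1a2 were not analysed here. Other alternatives were total counts for TMM, other filters, leaving out each liver, the replicate number as a block, 4 samples per group, a robust prior and the label prefix. Of the other lists, macrophage markers had 1 of 6 called in cirrhosis against control (Cd163, log2FC -1.22) and lymphocyte markers 3 of 5 (Cd3e 2.99, Nkg7 1.89, Ptprc 1.01), beside 20.2% of all genes. Cd3e had 9 counts over all controls and could pass the filter only through CCl4-treated livers.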

Additional observations from a re-analysis of the deposited data

Results flagged for a closer look

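The highest or lowest liver of each gene was compared with its nearest neighbour in all 30 combinations of 10 genes and 3 groups, and in 3 of them the gap took up more of the group's range than Dixon's 95% limit. Chance alone flags about 1 in 20 groups. Slc1a2 had 6.55 FPM in cirrhosis replicate 5, where the nearest liver of the group had 1.72, a gap of 0.737 of the range. The same liver stood apart from its group on the first principal component, and without it the log2FC of Slc1a2 in cirrhosis against control was -1.64 in place of -0.45. Axin2 had 20.3 FPM in cirrhosis & eplerenone replicate 2, where the nearest had 8.13, a gap of 0.760 of the range. That liver also had the highest Glul (570 FPM), Oat (508 FPM), Slc1a2 (19.9 FPM), Rhbg (38.0 FPM) and Tbx3 (13.8 FPM) of all 14 livers, and the lowest Wnt2 of its group (0.375 FPM). Wnt9b had 2.61 FPM in cirrhosis & eplerenone replicate 1, where the nearest had 1.86, a gap of 0.753 of the range, and without it the log2FC between cirrhosis & eplerenone and cirrhosis was -0.64 in place of -0.50.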

How the results depend on the processing

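The number of the 9 genes called in cirrhosis against control was 3, and 2 with total counts, 2 with at least 10 counts in every sample, 2 in limma-voom, 4 of 10 without the filter (Lgr5 then tested and added), 4 with 4 samples per group (Tbx3 added), and 0 to 4 when 1 liver was left out. Over all genes, 2906 (main), 3421 (total counts) and 2746 (limma-voom) of 14417 were called. The other fits called 1983 of 11199 (10 counts in every sample), 2609 of 21282 (no filter) and 4832 of 14126 (4 samples per group). Leaving out 1 liver gave 1365 to 4612 genes, so the share of all genes moved as well. For cirrhosis & eplerenone against cirrhosis the number of the 9 was 0 in all of these and in the leave-one-out fits (0 to 26 of all genes), apart from 1 (Glul) with 4 samples per group. Against control it was 1, with 0 in limma-voom (223 of all genes) and 0 to 1 when 1 liver was left out (221 to 1277 of all genes). The replicate numbers of the labels were not taken as pairs. The correlation of same-numbered livers ran from -0.31 to 0.20, and 3 of 13 pairs exceeded 0.1. Livers with different numbers were not compared, so these values cannot decide whether the numbers pair the livers. With the replicate block the counts were 1 (Rhbg), 0 and 0 in the order above, and over all genes 1743, 0 and 270 in place of 2906, 2 and 753. Values with the opposite sign under an alternative were all of cirrhosis & eplerenone against control, below the threshold in either fit, namely Slc1a2 in limma-voom (-0.17), Axin2 without control replicate 2 (-0.07), control replicate 3 (-0.08) or cirrhosis & eplerenone replicate 2 (-0.35), and Glul without the last (-0.11). Over the leave-one-out fits these ran from -0.35 to 0.45 for Axin2 and from -0.11 to 0.51 for Glul. The causes were not tested. The fit with 4 samples per group follows a list of the study and leaves out cirrhosis replicate 5 and cirrhosis & eplerenone replicate 3, which lay toward other groups on the first principal component. Its selection follows the outcome, so its 4832, 1294 and 688 genes called, and the calls of Glul and Tbx3 among them, are no independent support. Lists lost or gained calls when 1 liver was left out, from 1 to 4 of the other Wnt ligands, 3 to 8 Wnt receptors, 4 to 5 inhibitors, 0 to 5 genes of the intracellular core, 0 to 4 periportal and 5 to 7 sinusoidal endothelial genes in cirrhosis against control. A floor of 0.121 to 0.191 FPM limits what could be seen of Lgr5, Wnt2 and Wnt9b and, in single livers, of Slc1a2.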
